A study of Mus musculus with 29 samples.

Results

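The exchangeable subunits of the BAF chromatin-remodeling complex, which are swapped when a neural progenitor becomes a neuron, were followed in the mouse embryonic cortex at E17.5. The set was fixed by name. It holds 4 subunits of the progenitor form, namely Actl6a, Phf10, Dpf2 and Ss18, and 4 of the neuronal form, namely Actl6b, Dpf1, Dpf3 and Ss18l1. All 8 were present in every table, out of 38355 genes counted in the untreated experiment and 48709 in the treated one. RNA-seq was available from 19 libraries. The untreated experiment had 4 libraries titled C and 3 titled M. The treated experiment had 4 libraries each from WT embryos under vehicle, dcKO embryos under vehicle and dcKO embryos under a Wnt inhibitor. In dcKO embryos the floxed Smarcc1 and Smarcc2 genes (encoding the core scaffolds BAF155 and BAF170) are deleted by hGFAP-Cre, a transgene that is active in late cortical progenitors, so that neurons born earlier and cells outside this lineage still carry both genes in the bulk tissue. All embryos were of the C57BL/6J strain by their labels. The inhibitor ICG-001, or its vehicle, was given to the pregnant dam by daily injection. H3K27me3 ChIP-seq peak lists were available from 4 libraries titled C and 4 titled K of the same stage. The labels give the genotype dcKO for all untreated RNA and all H3K27me3 libraries, those titled C included, so these groups rest on the letters of the titles, which the labels do not spell out.

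BAF complexes use ATP to move nucleosomes and are built around a fixed core, to which interchangeable family members are added. In dividing neural progenitors the actin-related subunit is ACTL6A (BAF53A), the paired plant homeodomain finger subunit is PHF10 or DPF2, and the SS18 position is taken by SS18. As cells leave the cell cycle and differentiate, these give way to ACTL6B (BAF53B), DPF1 or DPF3, and SS18L1 (CREST), a subunit needed for activity-dependent dendrite growth. The repressor REST, bound to its RCOR partners, holds neuronal genes down in progenitors, and the brain microRNAs miR-9-3p and miR-124 are known to repress Actl6a.

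A few sequences are shown because they hold letter matches to elements tied to the exchange of the actin-related subunits. Whether these matches act as sites was not tested. The 300 bases around the Actl6b start (250 before and 50 after, GRCm38.p6, chr5:137553296-137553595, plus strand, RefSeq) held a match to each 7-base part of the REST recognition element. The spacing and order of the parts were not part of the search, so a whole element is not shown. The parts searched were CAGCACC and GGACAGC on both strands, and the capitals mark their reverse complements, at bases 22 and 38 after the start.
Actl6b promoter: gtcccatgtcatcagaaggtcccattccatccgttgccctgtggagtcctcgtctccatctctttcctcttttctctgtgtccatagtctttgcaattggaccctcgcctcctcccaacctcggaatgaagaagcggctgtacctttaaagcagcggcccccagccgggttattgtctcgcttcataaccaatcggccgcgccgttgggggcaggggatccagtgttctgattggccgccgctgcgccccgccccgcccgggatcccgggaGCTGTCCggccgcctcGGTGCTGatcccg
CAGCACC was found in 7.14% and GGACAGC in 6.56% of 32851 promoters of this length, and both together, at any spacing and order, in 0.575%. None of the other promoters searched held either of them (those of Actl6a, Phf10, Dpf2, Dpf1, Dpf3 and Ss18l1). The E-box CAGCTG was found in the Phf10 promoter, 180 bases before the start, and in 16.3% of all promoters. The E-box CAGATG was in none of the 7 and in 17.2% of all promoters.

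The microRNA sequence is given with its seed, bases 2 to 8, in capitals, and the Actl6a target site with the 7 bases that pair with the seed in capitals.
miR-9-3p: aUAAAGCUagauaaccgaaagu
Actl6a site: cacctcaacgtctgtAGCTTTAgtacactc
The match begins at base 38 of the 371-base 3' untranslated region of Actl6a (chr3:32726625-32726654 for the bases shown, plus strand, GRCm38.p6). Actl6a was the only one of the 8 genes with a match in its longest annotated 3' untranslated region, against 11.3% of 21037 genes. A match of letters is a description and was not tested as a site.

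Libraries held between 11946658 (M replicate 2) and 28391046 reads assigned to genes. Every member was counted at least 61 times in each library, and all 8 passed the filter on low counts in each comparison. Neuronal markers were present throughout but differed widely in level. Dcx, a marker of young neurons, had the highest median (1550 to 3453 CPM, counts scaled to library size by TMM) and Nefl the lowest (46.7 to 78.9 CPM). Of 5 choroid plexus markers, 4 averaged under 1 CPM in M, 2 in C, 2 in WT vehicle, 3 in dcKO vehicle and 1 in dcKO Wnt inhibitor. Their sum was 5.55 to 131 CPM in C and 4.62 to 8.67 CPM in M. Before any comparison, the deleted genes were checked against the labels. Smarcc1 measured 247, 264, 269 and 248 CPM in C and 245, 266, 299 and 256 CPM in WT vehicle. It measured 245, 128 and 135 CPM in M replicates 2, 3 and 4, 136, 242, 133 and 138 CPM in dcKO vehicle, and 214, 252, 139.8 and 173 CPM in dcKO Wnt inhibitor. Within M, dcKO vehicle and dcKO Wnt inhibitor, Smarcc2 was highest in the same libraries as Smarcc1. It measured 669.9 CPM in M replicate 2, 692 in dcKO vehicle replicate 2, and 644 and 695 in inhibitor replicates 1 and 2. The range was 654 to 714 CPM in C and 664 to 834 CPM in WT vehicle. The libraries labelled M replicate 2, dcKO vehicle replicate 2 and dcKO Wnt inhibitor replicates 1 and 2 thus carried levels of both deleted genes close to those of the controls, although inhibitor replicate 1 lay below every C and WT vehicle library in both. Inhibitor replicate 4 was intermediate (173 and 586 CPM). Results are given with these 4 libraries as labelled and without them.

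The untreated and treated experiments were not counted as independent repeats. Over 6464 genes, the deviation of M replicate 2 from its group mean correlated with that of dcKO vehicle replicate 2 at r = 0.94, and the difference between replicates 3 and 4 of M with that between replicates 3 and 4 of dcKO vehicle at r = 0.84. For same-numbered C and WT vehicle libraries the deviations gave r between 0.08 and 0.58, and for differently numbered ones between -0.53 and 0.38, so these ranges overlapped. Same-numbered M and dcKO vehicle libraries gave r between 0.71 and 0.94, and differently numbered ones between -0.79 and 0.51. These are correlations across genes, which are not independent replicates, and the labels do not say whether the tissue was shared.

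Levels were compared between genes as RPKM, read counts scaled to exon length and library size. At E17.5 the neuronal subunits led. Over the 19 libraries Actl6b had a median of 40.8 RPKM (31.7 to 49.3), Ss18l1 40.3 (32.1 to 46.6) and Dpf1 34.2 (28.7 to 43.3), and these ranges overlapped. The progenitor subunits followed, with Phf10 at a median of 14.7 RPKM (11.6 to 18.0), Dpf2 at 13.4 (12.002 to 15.4), Actl6a at 9.50 (7.01 to 11.5) and Ss18 at 4.11 (3.24 to 5.59). Phf10 and Dpf2 overlapped, while every Actl6a value lay below both of them and every Ss18 value below Actl6a. Dpf3 was the lowest at a median of 2.42 RPKM (0.771 to 3.83), with a range that overlapped Ss18. The neuronal form thus held both the most and the least abundant members. The order within both forms depended on the length used. Scaled to the longest transcript, Dpf2 led the progenitor form with a median of 26.2 RPKM, above every Phf10 (18.5), Actl6a (18.4) and Ss18 (9.32) library, and the ranges of Phf10 and Actl6a overlapped. In the neuronal form Dpf1 then had 57.9 RPKM, Actl6b 56.1 and Ss18l1 40.3, where Ss18l1 (at most 46.6) lay below every Dpf1 value (at least 48.5), and Dpf3 stayed the lowest at 3.26.

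**Figure D1:**
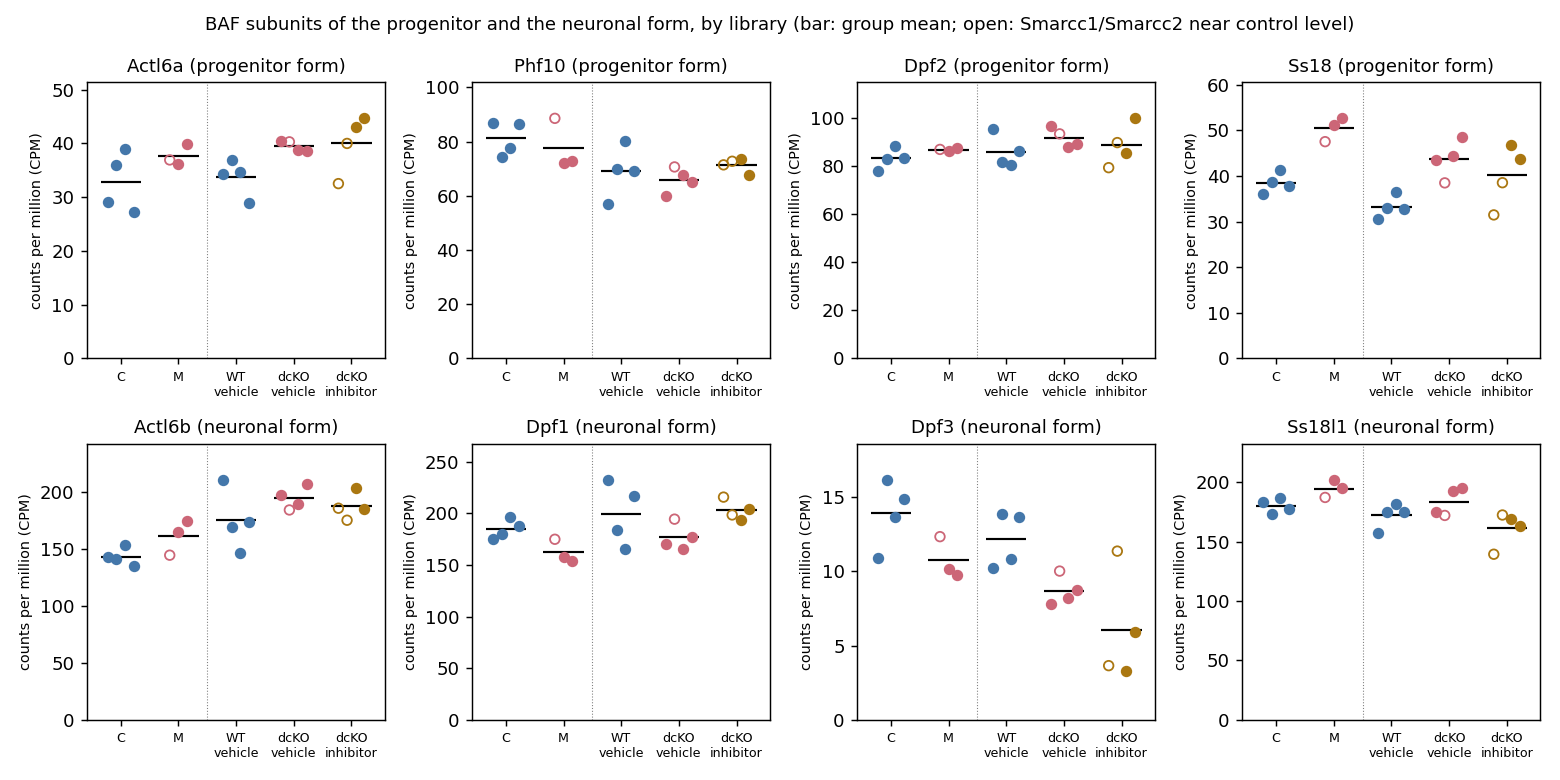
CPM of each subunit (y axis from 0) in every library of the 5 groups, with a bar at the group mean and open circles for the 4 libraries whose Smarcc1 and Smarcc2 are near control level. Ss18 is higher in all M than in all C libraries (47.5 to 52.6 against 36.0 to 41.3 CPM), and the lowest Dpf3 value is 3.26 CPM in the inhibitor group.

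Within each class, the share of transcripts of the neuronal form was computed per exon length. Over all libraries Actl6b made up 81.0% ± 2.05 of the ACTL6 pair (SD, n = 19), Ss18l1 90.5% ± 1.06 of the SS18 pair, and Dpf1 with Dpf3 56.7% ± 2.96 of the 4 genes of the PHD-finger (BAF45) class. The SS18 pair held 91.7%, 90.7%, 90.7% and 91.1% Ss18l1 in C and 89.5%, 89.6% and 88.9% in M. It held 91.8%, 92.0%, 91.6% and 92.0% in WT vehicle and 89.7%, 90.7%, 90.4% and 89.7% in dcKO vehicle. The groups did not overlap in either experiment, with means of 91.0% ± 0.478 in C (n = 4) against 89.3% ± 0.355 in M (n = 3), and of 91.9% ± 0.219 in WT vehicle against 90.1% ± 0.484 in dcKO vehicle (n = 4 each). The inhibitor libraries, at 90.6%, 90.7%, 88.7% and 89.0%, also lay below all WT vehicle libraries. The BAF45 share was 54.1%, 57.3%, 57.6% and 55.8% in C and 53.0%, 53.2% and 52.3% in M, again without overlap. In the treated experiment it overlapped, between 53.7% and 63.5% in WT vehicle and between 54.5% and 57.3% in dcKO vehicle. The ACTL6 share overlapped in both experiments, with 79.97% ± 2.11 in C (n = 4), 79.5% ± 1.30 in M (n = 3), 82.3% ± 2.76 in WT vehicle, 81.7% ± 0.970 in dcKO vehicle and 81.0% ± 2.09 in dcKO Wnt inhibitor (n = 4 each). No test was run on these shares, which are computed from the same counts as the member levels. No rate of non-overlap was computed for shares of other genes. Among single genes, 7.4% lay wholly higher and 6.49% wholly lower in M than in C. Relative to WT vehicle the rates were 3.08% and 2.67% in dcKO vehicle, and 3.47% and 4.15% under the inhibitor. As stated above, the experiments were not counted as independent repeats.

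**Figure D2:**
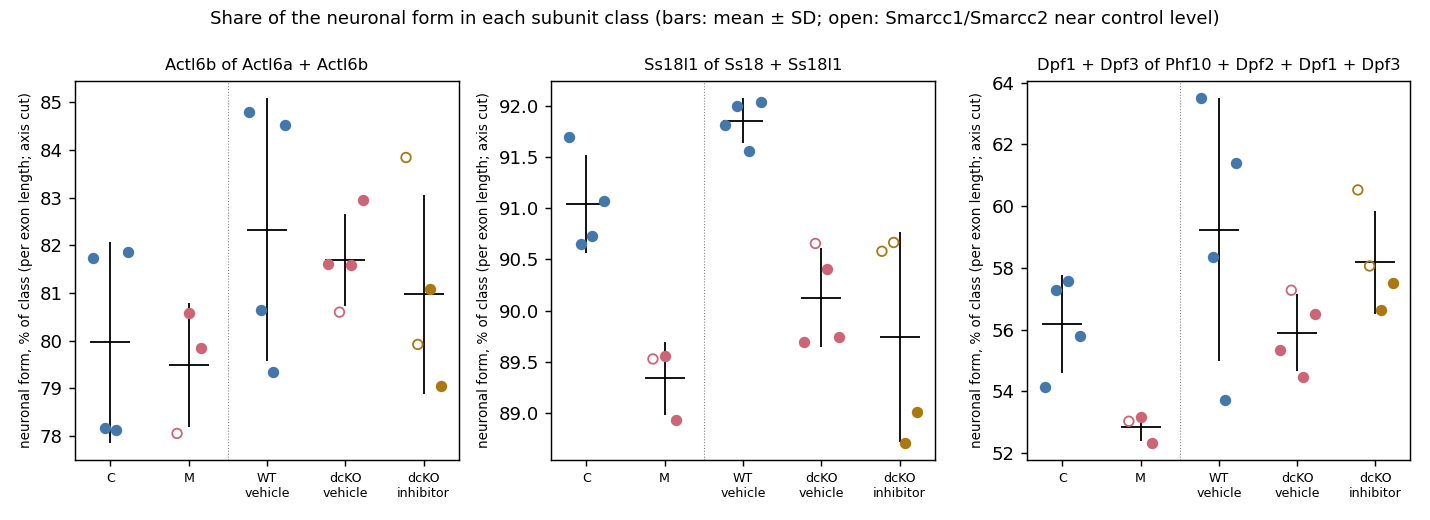
Neuronal form as a percent of its subunit class per exon length in each library, with mean ± SD per group; the y axes do not start at 0. The SS18 pair separates M from C (88.9% to 89.6% against 90.7% to 91.7%) and dcKO vehicle from WT vehicle (89.7% to 90.7% against 91.6% to 92.0%), while the ACTL6 pair overlaps in both. No test was run, and no rate of such separation was computed for other shares.

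The M libraries were compared with the C libraries to ask whether loss of BAF155 and BAF170 left the subunit exchange as it was. Ss18, the progenitor member of its pair, had an estimate of 1.31-fold its C level in M. It measured 36.0, 38.7, 41.3 and 37.8 CPM in C and 47.5, 51.1 and 52.6 CPM in M. All M libraries lay above all C libraries, the library labelled M replicate 2 included. The log2 fold change was 0.39 ± 0.07 (SE) with an edgeR adjusted p of 0.093, so Ss18 did not pass the threshold. It passed with DESeq2 (adjusted p = 0.000767) and without M replicate 2 (0.43 ± 0.08, edgeR adjusted p = 0.0046), within a range of 0.000767 to 0.54 over 11 alternatives. Its neuronal partner Ss18l1 measured 184, 173, 186 and 178 CPM in C and 187, 202 and 195 CPM in M. The groups did not overlap here either, and the log2 fold change was 0.11 ± 0.05 (edgeR adjusted p = 0.35). The absence of overlap upward held for 2 of 8 members and for 7.4% of 14034 genes, and downward for 0 members and 6.49%.

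Actl6a, the progenitor actin-related subunit, measured 29.1, 35.9, 39.0 and 27.2 CPM in C and 36.9, 36.2 and 39.99 CPM in M. The groups overlapped, with a log2 fold change of 0.20 ± 0.12 (edgeR adjusted p = 0.47). Actl6b, its neuronal counterpart, measured 143, 141, 153 and 135 CPM in C and 144, 165 and 174 CPM in M. M replicate 2 lay among the C libraries and the other two above them. The log2 fold change was 0.17 ± 0.07 (edgeR adjusted p = 0.295), and 0.24 ± 0.06 (edgeR adjusted p = 0.0296) without M replicate 2, where Actl6b passed the threshold as higher. Both actin-related subunits had positive estimates.

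In the BAF45 class the estimates of the neuronal members were negative. Dpf1 measured 175, 180.3, 197 and 188 CPM in C and 175, 157 and 154 CPM in M (log2 fold change -0.19 ± 0.07, edgeR adjusted p = 0.22). Without M replicate 2 it passed as lower (-0.25 ± 0.06, edgeR adjusted p = 0.027). Dpf3, a reader of acetylated histones, measured 10.9, 16.2, 13.7 and 14.9 CPM in C and 12.3, 10.2 and 9.73 CPM in M (-0.38 ± 0.15, edgeR adjusted p = 0.26). Its M libraries reached into the range of C only through M replicate 2. The estimates of the progenitor members lay nearer to 0. Phf10 ranged from 74.2 to 87.0 CPM in C and from 72.0 to 88.6 CPM in M (-0.07 ± 0.09, edgeR adjusted p = 0.75), and Dpf2 from 78.0 to 88.2 and from 86.3 to 87.4 CPM (0.06 ± 0.06, edgeR adjusted p = 0.64).

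With all libraries as labelled, 0 of 8 members passed the edgeR threshold, against 1 of 15770 genes (0.00634%). The deleted genes Smarcc1 and Smarcc2 did not pass either, so the absence of calls says little about the members. At an unadjusted p under 0.05 there were 2 members higher and 2 lower, beside 1248 genes above and 1283 below C, and DESeq2 called 1 member and 1.63% of genes higher and 1.89% lower. Without M replicate 2, 2 members passed as higher (Ss18 and Actl6b) beside 5.57% of 16024 genes, and 1 as lower (Dpf1) beside 6.88% (12.4% in either direction). Without this library 3 members lay wholly above C (Ss18, Ss18l1 and Actl6b) beside 19.7% of genes, and 3 wholly below (Phf10, Dpf1 and Dpf3) beside 19.3%. With all libraries, the median log2 fold change was 0.13 over the progenitor form and -0.04 over the neuronal form, against 0.00398 over all genes. The summed level of 12 neuronal markers was 9562 to 9986 CPM in M and 10353 to 11303 CPM in C. In bulk tissue, fewer cells of a type and less RNA per cell cannot be told apart. Upper-layer markers summed to 709 to 1104 CPM in M (709 to 712 without M replicate 2) against 865 to 1134 in C, and meningeal markers to 8.98 to 14.7 against 8.32 to 39.7 CPM. Without M replicate 2, 3 of 12 neuronal markers were called lower (Rbfox3, Dcx and Stmn2) and 0 higher, and 4 of 10 radial glia markers were called higher and 2 lower. Other progenitor markers had 0 called higher, with 1 of 6 dividing-cell and 1 of 3 intermediate progenitor markers lower. Of 5 interneuron markers 3 were called higher, with a sum of 673 to 737 CPM in M (440.5 in M replicate 2) against 514 to 601 CPM in C. The part of these cell populations in the subunit values was not tested.

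The dcKO vehicle and WT vehicle libraries address the same question under DMSO. Ss18 measured 30.5, 33.0, 36.4 and 32.8 CPM in WT vehicle and 43.6, 38.5, 44.3 and 48.4 CPM in dcKO vehicle. The groups did not overlap, and dcKO vehicle replicate 2 was the lowest of its group. The log2 fold change was 0.40 ± 0.12 (edgeR adjusted p = 0.32), and 0.45 ± 0.09 (edgeR adjusted p = 0.018) without the libraries in doubt, with adjusted p between 0.018 and 0.83 over 14 alternatives. With only dcKO vehicle replicate 2 left out, the estimate was 0.45 and Ss18 did not pass (edgeR adjusted p = 0.083). The pass thus also needed the removal of the inhibitor libraries in doubt, which are outside this comparison but share its estimate of the spread. Actl6a measured 34.3, 36.9, 34.7 and 28.9 CPM in WT vehicle and 40.5, 40.3, 38.9 and 38.6 CPM in dcKO vehicle. These groups did not overlap either, with a log2 fold change of 0.23 ± 0.11 (edgeR adjusted p = 0.54). Dpf3 measured 10.2, 13.9, 10.8 and 13.7 CPM in WT vehicle and 7.80, 10.02, 8.19 and 8.72 CPM in dcKO vehicle. All dcKO vehicle libraries lay below all WT vehicle libraries (-0.49 ± 0.30, edgeR adjusted p = 0.67).

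The other members overlapped between these groups. Actl6b ranged from 146 to 210.3 CPM in WT vehicle and from 184 to 207 CPM in dcKO vehicle (0.15 ± 0.10, edgeR adjusted p = 0.73). Dpf1 ranged from 165 to 233 and from 165 to 194 CPM (-0.18 ± 0.11, edgeR adjusted p = 0.65), and WT vehicle replicates 1 and 4 were the highest. Ss18l1, Phf10 and Dpf2 had estimates of 0.09 ± 0.09, -0.07 ± 0.10 and 0.09 ± 0.09 (edgeR adjusted p = 0.88, 0.95 and 0.88). In all, 0 of 8 members passed with the libraries as labelled, against 1 of 16372 genes (0.00611%), with 1 member, 677 genes up and 872 down when the p was left unadjusted at 0.05. Smarcc1 and Smarcc2 did not pass here either with the libraries as labelled. DESeq2 called 0 members, beside 0.519% of genes as higher and 0.214% as lower. Without the libraries in doubt, 1 member passed as higher, Ss18, against 2.47% of 16815 genes, and 0 as lower, against 3.34% (5.82% in either direction). The absence of overlap upward held for 2 members and for 3.08% of 14473 genes, and downward for 1 member and 2.67%. The same 3 members stood apart without the libraries in doubt, beside 9.46% of genes upward and 9.61% downward. Neuronal markers summed to 9299 to 10901 CPM in WT vehicle and 8599.7 to 9353 CPM in dcKO vehicle. Without the libraries in doubt, 1 of 12 neuronal markers was called lower (Stmn2), 1 of 5 interneuron markers higher (Dlx1) and 2 of 10 radial glia markers lower (Nes and Tnc). Of 3 intermediate progenitor markers 1 was called lower, and of 6 dividing-cell markers 0 were called. The part of these markers in the subunit values was not tested.

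A direct test of whether the M against C difference and the dcKO vehicle against WT vehicle difference were unequal found 0 of 8 members past the edgeR threshold and 0 of 15999 genes (0%), with 0 members, 44 genes up and 43 down when the p was left unadjusted at 0.05. The difference between the 2 log2 fold changes lay between -0.10 and 0.04 over the 8 members. Given the correlated deviations of same-numbered libraries above, this test compares measurements that may not be independent.

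The Wnt inhibitor was given to ask which dcKO changes depend on Wnt signaling. No WT embryos under the inhibitor were available. Relative to WT vehicle, the effects of genotype and inhibitor therefore cannot be told apart. Dpf3 was the member with the largest estimates under the inhibitor. It measured 3.65, 11.4, 3.26 and 5.90 CPM there, against 7.80, 10.02, 8.19 and 8.72 CPM in dcKO vehicle and 10.2, 13.9, 10.8 and 13.7 CPM in WT vehicle. Inhibitor replicate 2, which carried control levels of Smarcc1 and Smarcc2, lay within the WT vehicle range, and the other three lay below all dcKO vehicle libraries. Inhibitor replicate 1 had near-control Smarcc1 and low Dpf3, so these measures did not go together in every library. The log2 fold change was -0.53 ± 0.31 against dcKO vehicle (edgeR adjusted p = 0.42) and -1.01 ± 0.31 against WT vehicle (edgeR adjusted p = 0.12). Without the libraries in doubt the latter became -1.40 ± 0.24 (edgeR adjusted p = 0.0091) and passed as lower, and the former was -0.84 ± 0.24 (edgeR adjusted p = 0.12). Leaving out inhibitor replicate 2 alone gave -1.50 ± 0.21 against WT vehicle (edgeR adjusted p = 0.0043) and -1.01 ± 0.21 against dcKO vehicle (edgeR adjusted p = 0.036). The adjusted p ranged from 0.0043 to 0.35 over 14 alternatives against WT vehicle and from 0.036 to 0.77 against dcKO vehicle.

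**Figure D3:**
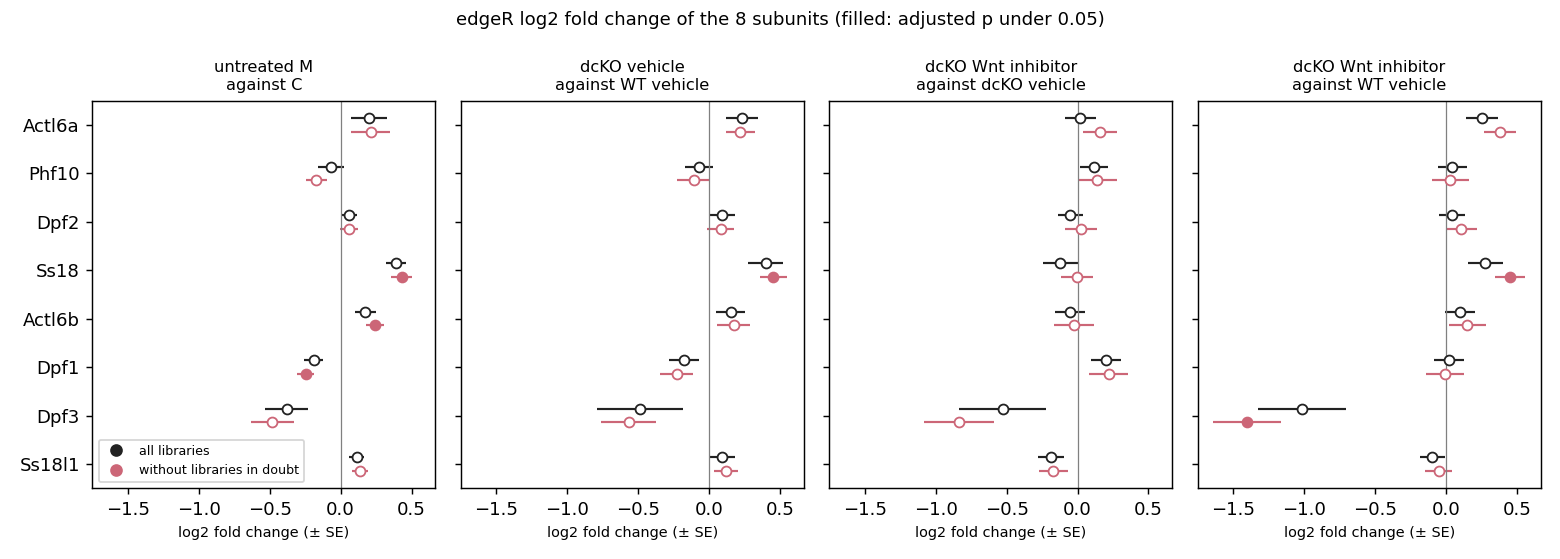
log2 fold change (x axis, ± SE) of each subunit in the 4 comparisons by edgeR, in black with all libraries and in red without the libraries in doubt (M replicate 2 in the untreated experiment); filled points have an adjusted p under 0.05. No black point is filled, Ss18 lies near 0.4 in both comparisons of dcKO with control, and Dpf3 reaches -1.40 under the inhibitor against WT vehicle.

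Ss18 measured 31.5, 38.5, 46.8 and 43.8 CPM under the inhibitor. Replicate 1 lay within the WT vehicle range and replicates 2, 3 and 4 above it. The estimate was -0.12 ± 0.12 against dcKO vehicle (edgeR adjusted p = 0.66) and 0.28 ± 0.12 against WT vehicle (edgeR adjusted p = 0.24), and the latter was 0.45 ± 0.11 (edgeR adjusted p = 0.032) without the libraries in doubt. Actl6a, at 32.5, 40.01, 43.2 and 44.7 CPM, was estimated 0.25 ± 0.11 above WT vehicle (edgeR adjusted p = 0.23). Dpf1, at 216, 198, 193 and 204 CPM, was estimated 0.20 ± 0.11 above dcKO vehicle (edgeR adjusted p = 0.38) and 0.02 ± 0.11 from WT vehicle (edgeR adjusted p = 0.93). Ss18l1, at 139, 172, 169.5 and 163 CPM, was estimated 0.19 below dcKO vehicle (log2 fold change -0.19 ± 0.09, edgeR adjusted p = 0.33). Actl6b, Phf10 and Dpf2 ranged from 175 to 203, 67.7 to 73.5 and 79.3 to 99.8 CPM and overlapped both other groups.

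With all libraries, 0 of 8 members passed in either inhibitor comparison, against 9 (0.055%; 0.0428% higher and 0.0122% lower) of 16372 genes relative to dcKO vehicle and 16 (0.0977%; 0.0611% higher and 0.0366% lower) relative to WT vehicle. At an unadjusted p under 0.05 there were 0 members relative to dcKO vehicle, beside 1285 genes up and 1309 down, and 3 relative to WT vehicle, beside 1560 and 1676. DESeq2 called 0 members beside 1.06% of genes higher and 1.01% lower in the first comparison, and 1 (Dpf3, lower) beside 2.01% and 2.69% in the second. No member was free of overlap in either, beside 4.56% of genes upward and 4.11% downward relative to dcKO vehicle and 3.47% and 4.15% relative to WT vehicle. Without the libraries in doubt 1 member passed as higher and 1 as lower relative to WT vehicle, beside 2.66% and 4.72% of 16815 genes (7.38% in all), and 0 relative to dcKO vehicle, beside 0.303% higher and 0.72% lower (1.02% in all). With 2 inhibitor libraries left, Actl6a and Dpf1 lay wholly above dcKO vehicle beside 25.6% of genes, and Dpf3 and Ss18l1 wholly below beside 23.9%. Relative to WT vehicle, Actl6a and Ss18 lay above beside 13.8% and Dpf3 below beside 2183 of 14510 genes. The inhibitor libraries varied in choroid plexus markers, whose sum was 6.94 to 842 CPM against 5.61 to 9.15 in dcKO vehicle and 5.13 to 128 in WT vehicle. Without the libraries in doubt, where Dpf3 and Ss18 passed relative to WT vehicle, 2 of 5 interneuron markers were called higher (Gad2 and Dlx1), with a sum of 747 to 854 CPM against 526 to 636 CPM in WT vehicle. Of 10 radial glia markers 2 were called higher (Sox2 and Fabp7) and 0 lower, and of 6 dividing-cell and 3 intermediate progenitor markers 0 were called. Of 12 neuronal markers 1 was called lower (Syt1) and 5 had an unadjusted p under 0.05 on the lower side, with a sum of 8114 to 8738 CPM against 9299 to 10901 CPM. The part of these markers in the subunit values was not tested. The inhibitor comparisons share the dcKO vehicle and WT vehicle libraries with the preceding one.

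Among 23 other BAF subunits, the deleted Smarcc1 and Smarcc2 included, 0 passed in any comparison with all libraries as labelled (edgeR). At an unadjusted p under 0.05, 4 were higher and 2 lower in M, beside 1248 and 1283 of 15770 genes. Relative to WT vehicle, 0 were higher and 4 lower in dcKO vehicle, beside 677 and 872 of 16372 genes. Without M replicate 2, 3 of 23 were higher and 4 lower in M, beside 5.57% and 6.88% of all genes, and the 4 lower include the 2 deleted genes. Those with the smallest adjusted p were the deleted Smarcc1 (-0.97 ± 0.06) and Smarcc2 (-0.77 ± 0.07), and Bcl11a (-0.92 ± 0.07), a transcription factor of cortical neurons that binds BAF. Next came the large DNA-binding subunits Arid1a (0.39 ± 0.07) and Arid1b (0.43 ± 0.08), and the ATPase Smarca2 (-0.34 ± 0.06). In dcKO vehicle, without the libraries in doubt, 2 were higher and 4 lower relative to WT vehicle, beside 2.47% and 3.34% of all genes and again with the 2 deleted genes among the lower, with Smarcc1 at -0.97 ± 0.10, Smarcc2 at -0.76 ± 0.13, Bcl11a at -0.97 ± 0.13, Smarca2 at -0.38 ± 0.08, Arid1b at 0.41 ± 0.08 and Arid1a at 0.39 ± 0.10. Relative to WT vehicle, the inhibitor libraries then showed Smarcc1 (-0.77 ± 0.12), Smarcc2 (-0.55 ± 0.14) and Smarca2 (-0.35 ± 0.09) as lower and 0 as higher, beside 4.72% and 2.66% of all genes. The libraries in doubt were picked by their Smarcc1 and Smarcc2 levels. The calls and estimates of these 2 genes without those libraries follow from that choice and are no separate evidence.

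The transcripts tied to the switch were measured as well. None of the regulators passed the edgeR threshold in any of the 4 comparisons, with or without the libraries in doubt. Rest had estimates of 0.13 ± 0.10 in M against C and 0.14 ± 0.19 in dcKO vehicle against WT vehicle, and its partner Rcor1 of 0.08 ± 0.06 and 0.05 ± 0.14. Rcor2, a partner enriched in neural progenitors, was estimated at -0.21 ± 0.20 and -0.22 ± 0.16, and at -0.46 ± 0.14 and -0.42 ± 0.11 without the libraries in doubt (edgeR adjusted p = 0.062 and 0.064). The microRNA host transcript Mir124a-1hg was estimated at 0.01 ± 0.15 and -0.06 ± 0.13, and at 0.42 ± 0.13 in inhibitor against dcKO vehicle (edgeR adjusted p = 0.19). Mir9-3hg was estimated at 0.12 ± 0.09 and 0.09 ± 0.14. Mir124-2hg, counted in the treated tables only, was estimated at 0.09 ± 0.20. Host transcripts do not measure the mature microRNAs.

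The 5 genes whose pattern over the 19 libraries was most like that of each actin-related subunit were then listed. For Actl6a they were Btg2, an antiproliferative gene of neurogenic progenitors (Pearson r = 0.90), Uhrf1, which maintains DNA methylation at replication (0.88), Pcbp2 (0.88), Ints4 (0.87) and Kif20a, a mitotic kinesin (0.87). For Actl6b they were the glycolytic enzyme Pkm (0.93), the endosomal GTPase Rab5c (0.93), the actin regulator Evl (0.92), Pqlc1 (0.92) and the splicing helicase Dhx38 (0.92). The values are log2 CPM centred on each experiment, among 10224 genes, and libraries share depth and tissue composition, so they describe likeness only.

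H3K27me3, the mark laid down by Polycomb and tied to gene silencing, was then read at the 8 genes from the deposited peaks. Dpf3, the least expressed member, was the one most often marked, while 36.5% of genes had a start peak in at least 1 library. It had a peak within 2000 bp of its start in 3 of 4 C and 3 of 4 K libraries, or 6 of 8, which was true of 10.3% of 22028 protein-coding genes. Phf10 had one in 3 of 8 libraries (18.4% of genes had at least as many), Dpf1 in 2, and Actl6b and Ss18 in 1 each. Actl6a, Dpf2 and Ss18l1 had none there. Fold enrichment over input at the Dpf3 start was 3.97, 3.98 and 3.53 in C replicates 1, 2 and 4 and 3.62, 3.56 and 5.73 in K replicates 1, 3 and 4. The lists differed widely in size, from 6674 to 46000 peaks, and in the share of tags kept after removal of duplicates, from 12.3% to 66.5%. K replicate 4, with the most peaks, supplied the only start peak of Actl6b. Every start peak of Phf10, Dpf1 and Ss18 came from the longest lists, C replicate 1 (28659 peaks), K replicate 1 (18408) and K replicate 4.

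**Figure D4:**
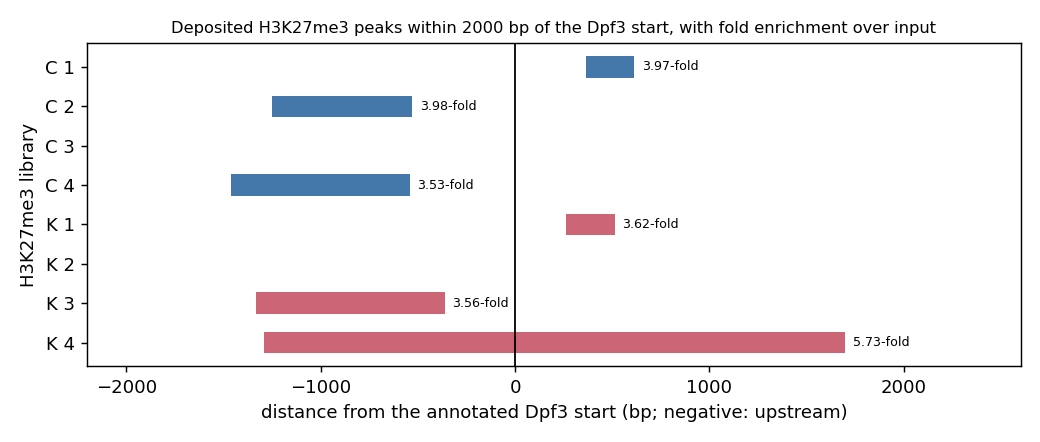
Position of each deposited H3K27me3 peak within 2000 bp of the annotated Dpf3 start (x axis, bp, upstream negative) in the 4 C and 4 K libraries (rows), with its fold enrichment over input. Peaks of C 2, C 4, K 3 and K 4 share an upstream stretch, C 1 and K 1 have narrow peaks downstream, and C 3 and K 2 have none.

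The upstream peaks of C replicates 2 and 4 and K replicates 3 and 4 shared 708 bp (chr12:83488259-83488966, GRCm38) with 27 CpG dinucleotides. The central 300 bases of this stretch are shown on the strand of Dpf3 (chr12:83488463-83488762, minus strand, GRCm38.p6) because they lie under the peaks of 4 libraries, with each CpG in capitals. They hold 7 CpG, against a median of 7 in promoters of the same length.
Dpf3 peak centre: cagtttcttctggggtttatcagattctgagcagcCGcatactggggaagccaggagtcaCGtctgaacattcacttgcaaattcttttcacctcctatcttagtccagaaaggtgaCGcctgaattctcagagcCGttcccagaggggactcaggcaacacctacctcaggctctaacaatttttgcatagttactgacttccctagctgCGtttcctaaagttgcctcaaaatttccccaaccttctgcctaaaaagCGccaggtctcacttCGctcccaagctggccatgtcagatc
The K and C groups were compared over 22220 merged regions, 6 of which lie at a member gene. With limma 0 of 6 passed, against 0 of all regions (0%). Among all regions 44 higher and 5 lower, but 0 of the 6, reached an unadjusted p under 0.05. At the Dpf3 start the log2 difference in fold enrichment between K and C was 0.10 ± 0.90 (SE, limma adjusted p = 0.999995), at the Dpf1 start 0.89 ± 0.65, and within the Dpf3 gene, at a peak of C replicates 1 and 3, -1.22 ± 0.78. With errors of this size a change at these genes was not detectable, and peak lists hold no reads with which to narrow them.

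In the genome (GRCm38) the members are dispersed. Actl6a lies at chr3:32706298-32726973, Phf10 at chr17:14945009-14961273, Ss18 at chr18:14624198-14682914, Dpf2 at chr19:5896516-5913010, Actl6b at chr5:137553517-137569582, Dpf1 at chr7:29303951-29318243, Dpf3 at chr12:83213745-83487716 and Ss18l1 at chr2:180042509-180070201. Exons of Actl6a overlap those of the antisense gene Mrpl47 over 452 bp and exons of Phf10 those of 1600012H06Rik over 470 bp. Shorter overlaps were 79 bp between Dpf2 and Gm42067 and 96 bp between Dpf1 and Gm44632. The library kit does not keep strand, so reads of the overlapping genes cannot be told apart there. The exons of Ss18, Actl6b, Dpf3 and Ss18l1 overlap no other annotated exon.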

How the data were processed

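RNA was sequenced from E17.5 cortex (19 libraries) with an unstranded kit. The authors aligned reads with STAR to mm10 and deposited raw read counts per gene from featureCounts. H3K27me3 peaks were called per library against input by the authors with MACS2 (2.1.0.20140616, broad, mm10); the deposited lists give pileup (signal), fold enrichment (a ratio) and the -log10 q-value. The untreated tables end in 5 summary rows, all 0, which were left out.

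Counts were tested per experiment with edgeR 4.0.16 (TMM, filterByExpr, quasi-likelihood, Benjamini-Hochberg adjusted p under 0.05 over all genes); DESeq2 1.42.0 was an alternative. Peaks overlapping across libraries were merged where at least 2 libraries had one, and log2 fold enrichment, 1 without a peak, was tested with limma 3.58.1. On simulated data without mislabelled libraries, the scripts recovered most of the largest planted changes, which exceeded every member estimate. Recovery of changes as small as most member estimates was not tested. Promoters and microRNAs came from RefSeq GRCm38.p6 (7 of 8 members matched for promoters), and gene models from GENCODE M21. The members and gene lists were chosen with earlier results of these data known. Other genes named were up to 6 other BAF subunits per comparison with the smallest adjusted p, every regulator, and the 5 nearest patterns to Actl6a and Actl6b among genes of at least 10 CPM. Whether same-numbered libraries within an experiment are paired was checked, and they were not treated as pairs. The labels do not say that replicates are separate embryos, so p-values measure the spread between these libraries. No 2 libraries of a group agreed within sampling noise (mean chi-square per gene at least 6.87). The comparison without the libraries in doubt was chosen after seeing the data, and groups left with 2 libraries borrow their spread from the other groups.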

Additional observations from a re-analysis of the deposited data

How the results depend on the processing

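The number of members past the threshold was 0 in all 5 RNA comparisons and at H3K27me3 with all libraries. In M against C it became 1 without a filter on low counts and 1 with DESeq2 (Ss18 in both), and 0 to 3 when each library was left out, the 3 without M replicate 2. In dcKO vehicle against WT vehicle it became 1 without the libraries in doubt (Ss18), and stayed 0 with each library left out, dcKO vehicle replicate 2 included. In inhibitor against dcKO vehicle it was 0 to 1 with each library left out, the 1 (Dpf3) without inhibitor replicate 2. In inhibitor against WT vehicle it became 1 with DESeq2 (Dpf3), 2 without the libraries in doubt (Dpf3 and Ss18) and 0 to 1 with each library left out (Dpf3, without inhibitor replicate 2). The neuronal share by longest transcript was 75.2% for ACTL6 and 80.7% for SS18, and the SS18 share without scaling by length 81.4%. The cause of these shifts was not tested.

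The correlation of deviations between same-numbered libraries ranged from -0.18 to 0.40 over 12 pairs in the treated experiment and from -0.31 to -0.033 over 3 in the untreated one. Replicate 1 of WT vehicle gave the highest values, with inhibitor (0.40) and dcKO vehicle (0.38) replicate 1, and not every library correlated best with its own number. Since the labels do not pair the numbers and not every pair was above 0.1, the replicate block is given only here. With the replicate block the member count was 1 in inhibitor against WT vehicle (Dpf3, -1.12) and 0 in the other comparisons, and the genes called there were 64 higher and 125 lower, against 10 and 6 without it.

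Estimates that changed sign all belonged to members whose estimates lay near 0 or whose errors were wide. Without the libraries in doubt Dpf2 became 0.025 in inhibitor against dcKO vehicle and Dpf1 -0.0079 in inhibitor against WT vehicle. With each library left out, Actl6a ranged from -0.037 to 0.11 and Dpf2 from -0.11 to 0.000274 in inhibitor against dcKO vehicle, and Dpf1 ranged from -0.0596 to 0.10, Dpf2 from -0.0195 to 0.094 and Phf10 from -0.039 to 0.12 in inhibitor against WT vehicle. Phf10 ranged from -0.15 to 0.0092 in dcKO vehicle against WT vehicle. At H3K27me3, a q-value under 0.01 gave -0.044 at Phf10 and -0.37 at the Dpf3 start, and pileup gave -0.089 within Ss18l1; with each library left out the Dpf3 start ranged from -0.38 to 0.62 and Ss18l1 from -0.13 to 0.25.

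Over all genes the counts moved more. DESeq2 called 257 higher and 298 lower in M against C, 85 and 35 in dcKO vehicle against WT vehicle, 174 and 165 in inhibitor against dcKO vehicle, and 329 and 441 in inhibitor against WT vehicle. No filter on low counts gave 88 higher and 66 lower in M against C. Leaving out 1 library gave up to 1994, 562, 420 and 1453 genes in the same order, the highest without M replicate 2, dcKO vehicle replicate 2 and, in both inhibitor comparisons, inhibitor replicate 2.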
